A study of Mus musculus with 19 samples.

Results

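The genes described here encode the translation initiation factors of mouse thymocytes, the proteins that bring the small ribosomal subunit, the initiator tRNA and the mRNA together. They were taken as every gene with a symbol of Eif1 to Eif6 that 1 or more probe sets measured under that symbol alone, without the Eif2ak kinases and without Eif2s3x, Eif2s3y and Eif1ax. This gave 45 genes of 22180 measured, each read by the probe set with the highest mean over all 19 arrays. Of these, 43 belong to 8 factor groups, and 2 were matched by symbol only: Eif1-ps3, which RefSeq lists as a pseudogene, and Eif2c5, listed as a long noncoding RNA. Eif1, Eif2s1, Eif3g, Eif3j2, Eif4g1 and Eif4ebp3 had no probe set naming them alone and were not analysed here.

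Each of 3 thymocyte populations was sorted from Rptor-/- and from WT mice on a C57BL/6 background and hybridised to microarrays. Rptor-/- cells came from CD2-cre mice crossed with mice carrying a loxP-flanked Rptor gene (Raptorfl/fl), in which Cre is expressed from the regulatory sequences of CD2, a lymphocyte gene; the WT labels do not say whether those mice carried Cre, and no age is given. Immature single-positive cells (ISP: CD4-negative, CD8-positive, TCRβ-negative) had 3 Rptor-/- and 4 WT arrays, and DN3a cells (double-negative, CD25-high, CD44- and CD28-negative) and γδ T cells (gated to lack CD4 and CD8, TCRβ, NK1.1 and also Gr1) had 3 arrays of each genotype. Nothing in the labels says that replicates were separate animals, so the p-values reflect only how far these arrays spread, and that spread may be technical. The comparisons ask which initiation factor transcripts differed with Rptor genotype in each population.

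Rptor encodes Raptor, the subunit that brings substrates to the growth-regulating kinase complex mTORC1. As background, mTORC1 acts on initiation mainly through proteins: it phosphorylates the 4E-binding proteins, which otherwise hold the cap-binding factor eIF4E away from eIF4G, and through S6 kinase it reaches eIF4B. Initiation itself runs through a fixed order: eIF2 carries the initiator tRNA, eIF1, eIF1A and eIF3 hold it on the small subunit, eIF4F (eIF4E, eIF4G and the helicase eIF4A) recruits the capped mRNA, and eIF5 and eIF5B release the factors at the start codon, after which eIF2B recharges eIF2 with GTP. Thymocytes pass through a burst of growth and division at the step from DN3 to ISP.

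Some initiation factor genes carry the E-box CACGTG near their start, the sequence that Myc with Max and related factors are known to bind, and 5 such sites are shown: those of the 3 members with a site that passed the test in ISP cells, and for contrast 1 of Eif4e, the main cap-binding factor, which did not pass. The motif was searched after the array values had been seen, in RefSeq windows of 250 bases before to 50 bases after the start (GRCm38.p6); the motif reads the same on both strands. It was found in 9 of 34 members that had a window (26.5%), and in 2187 of all 27025 genes that had a window (8.09%). A gene was counted if any of its windows held the motif. The 27025 include genes of any signal, and no share was computed among genes with signal like that of the members. Among members lower in Rptor-/- ISP cells it was in 2 of 9, and among those that did not pass the test in 6 of 24 (25%). In each line the E-box is in capitals, and the sequence is written 5′ to 3′ along the gene's strand.
Eif5a (lower in Rptor-/- ISP cells), chr11:69921428-69921487, minus strand: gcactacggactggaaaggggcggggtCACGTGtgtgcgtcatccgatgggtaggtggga
Eif5a, second window, chr11:69920776-69920835, minus strand: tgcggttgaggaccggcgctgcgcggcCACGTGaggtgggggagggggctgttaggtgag
Eif4h (lower), chr5:134639473-134639532, minus strand: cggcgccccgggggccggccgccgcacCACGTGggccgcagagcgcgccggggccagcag
Eif4a1 (higher on 1 of its 2 probe sets), chr11:69672580-69672639, minus strand: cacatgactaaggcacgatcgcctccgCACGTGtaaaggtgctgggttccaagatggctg
Eif4e (not passed), chr3:138527177-138527236, plus strand: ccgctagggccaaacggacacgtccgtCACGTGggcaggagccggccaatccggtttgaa
The E-box lay 74 and 178 bases before the 2 annotated starts of Eif5a, 96 before that of Eif4h, 189 before that of Eif4a1 and 64 before that of Eif4e, which has a second site 228 bases before its start. The other members that did not pass and hold a site are Eif1b, Eif3a, Eif3f, Eif3k and Eif5a2. A match describes the letters of the window and shows no binding.

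Array values are log2 expression values, on which 1 unit is a doubling of signal. The 7 ISP arrays had medians over all probe sets of 3.80 to 3.88 and the other 12 of 6.03 to 6.13, so levels are compared only within a population. Rptor signal itself was lower in Rptor-/- cells, with log2 differences of −0.24 in ISP cells (limma adjusted p = 0.0384), −0.58 in DN3a cells (0.000598) and −0.30 in γδ T cells (0.0489). Exact two-sided permutation tests of those single values gave p = 0.114, 0.1 and 0.1, where the smallest possible were 0.0571, 0.1 and 0.1. The ISP and γδ calls were lost in several alternative fits. Populations carried the marker of their label: Cd8a averaged 11.37 ± 0.02 in Rptor-/- (SD, n = 3) and 11.33 ± 0.12 in WT (SD, n = 4) ISP cells, and Il2ra 12.87 ± 0.06 and 12.58 ± 0.06 in Rptor-/- and WT DN3a cells (SD, n = 3 each). Sox13 averaged 10.62 ± 0.13 in Rptor-/- and 10.75 ± 0.27 in WT γδ T cells (SD, n = 3 each), and the receptor genes Trdc and Tcrg-C1, -C2 and -C4 were not measured under 1 symbol. In DN3a cells Sox13 was higher in Rptor-/- than in WT cells, by 0.51 (limma adjusted p = 0.0464). Markers of B, myeloid, dendritic, erythroid, NK, mature αβ T and stromal cells were also read, 37 in all. In Rptor-/- ISP cells 1 was lower (Klf2, −1.26) and 1 higher (Pecam1, 0.39). In Rptor-/- DN3a cells 1 myeloid and 1 stromal marker were higher, and the largest differences in those lists were 1.04 and 0.67. In Rptor-/- γδ T cells 1 NK marker was lower, and 1 NK and 1 mature αβ T-cell marker were higher. There the differences ran from −0.56 to 2.10 in the NK list and from −0.34 to 0.50 in the mature αβ T-cell list. The part of these markers in the initiation factor values was not tested.

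In ISP cells, 12 of the 45 initiation factor genes were lower and 2 higher in Rptor-/- than in WT cells at a limma adjusted p under 0.05. The lower genes were Eif5a, Eif2s2, Eif3b, Eif1ad, Eif4e2, Eif4h, Eif3l, Eif1a, Eif3d, Eif3i, Eif2b3 and Eif2b1, and they kept 66.3% to 84.1% of the WT signal. The higher genes were Eif4a1, on 1 of its 2 probe sets, and Eif4e3. The 14 called genes were 31.1% of the members, and 12.4% of all 22180 genes passed the same test in ISP cells, 6.57% of all genes lower and 5.87% higher. Most of the gap over both directions was gone when genes of low signal were left out. With a mean above the array median required, 15 of 43 members (34.9%) and 29.5% of 11121 genes passed. A gap remained in the lower direction, with 30.2% of those members and 15.5% of those genes lower. At an unadjusted limma p under 0.05 there were 21 of 45 members, and 4862 of 22180 genes (21.9%). The median log2 difference was −0.14 over members and −0.0039 over all genes, and 32 of 45 members lay below 0 (71.1%, against 51.3% of all genes). In 18 of 45 members every Rptor-/- array was below every WT array, and in 4 of 45 every one was above. Of 22180 genes, 1985 (8.95%) and 1718 (7.75%) did so. In a bulk sample, fewer cells of a kind and less RNA per cell cannot be told apart.

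**Figure D1:**
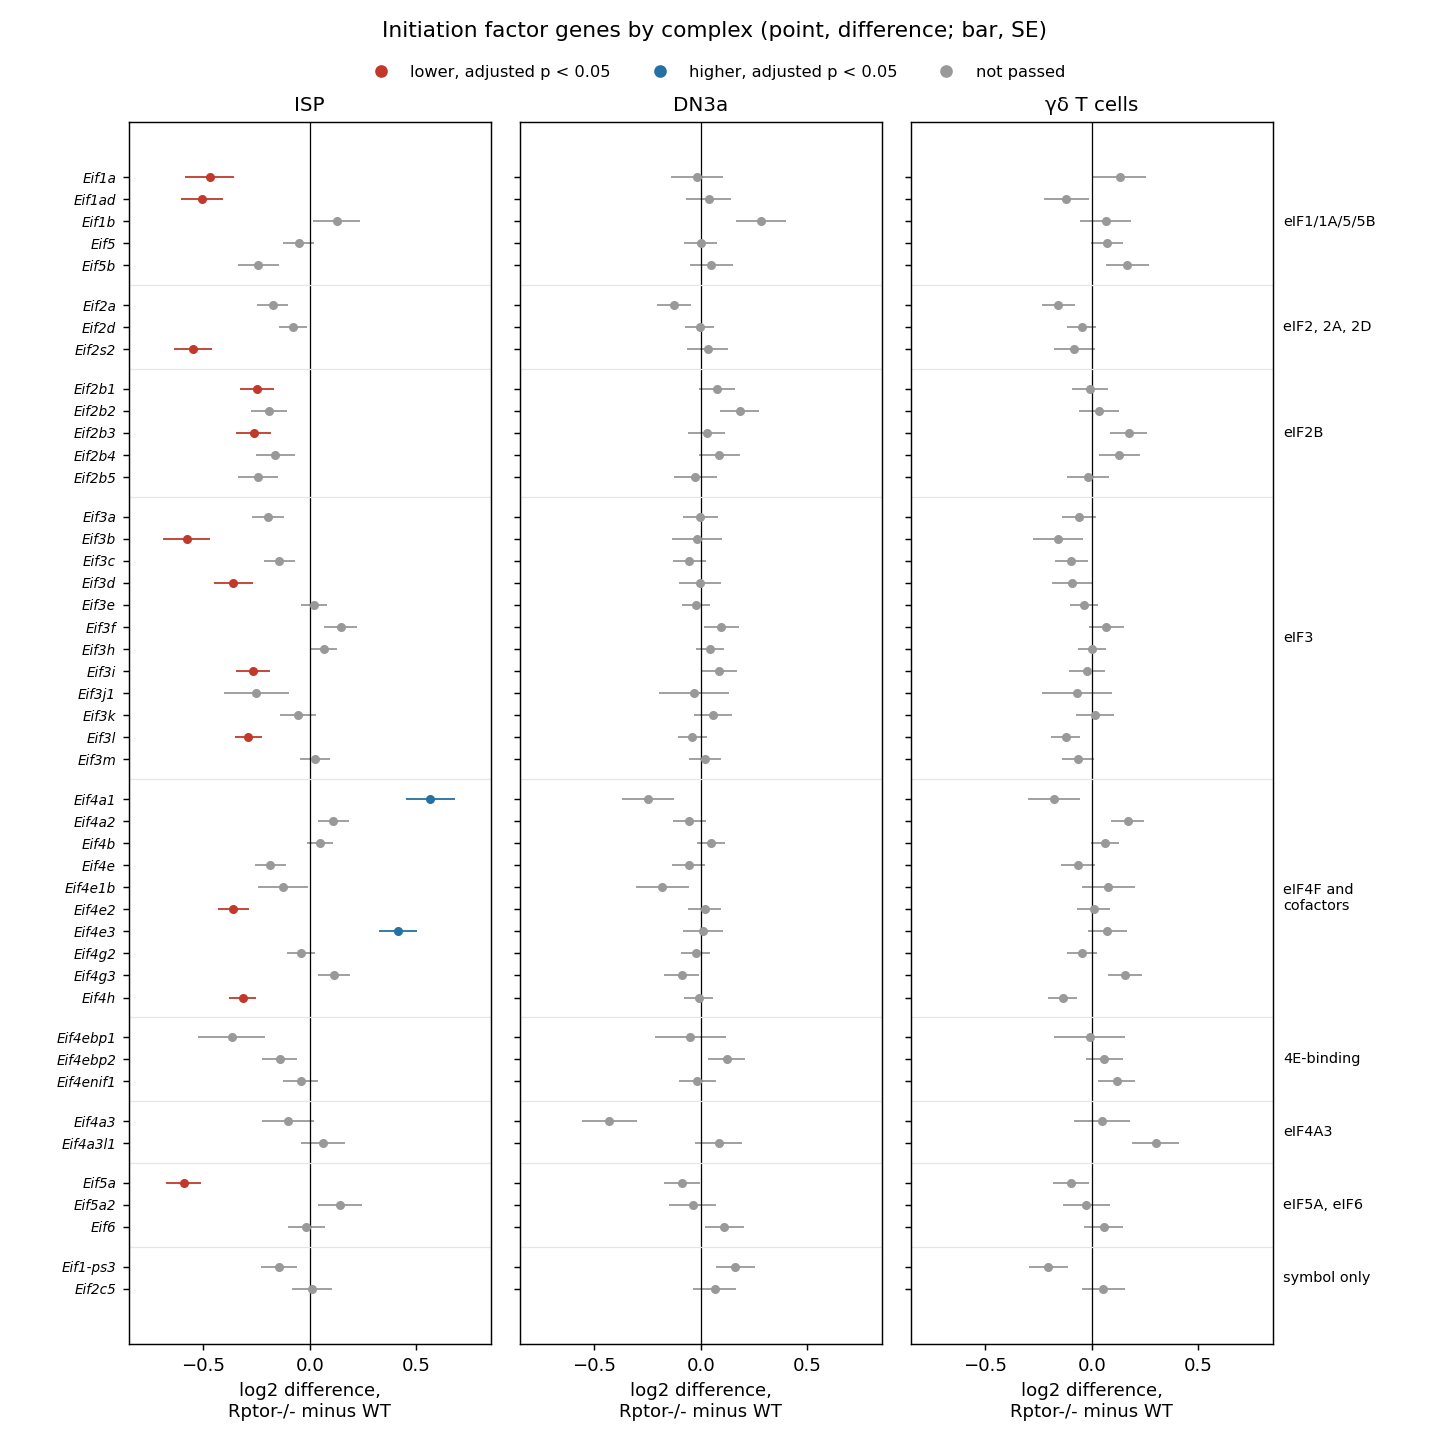
Log2 difference, Rptor-/- minus WT, of each of the 45 initiation factor genes in ISP cells, DN3a cells and γδ T cells, grouped by factor complex (points, differences; bars, 1 SE; colours, limma adjusted p under 0.05). In ISP cells 12 genes are marked lower and 2 higher, and in the other 2 populations none is marked.

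The ISP calls depended on the arrays that entered the fit. When only the 7 ISP arrays were fitted, 8 members passed (7 lower, 1 higher), or 17.8%, where 5.92% of all genes did, so both shares came down together. Eif2b1, Eif2b3, Eif3b, Eif3d, Eif3i and Eif4e3 did not pass there, with adjusted p between 0.0614 and 0.135 and unchanged differences. Marker genes of DN3a cells also differed between these ISP groups. Of 5 measured DN3a markers, 4 were higher in Rptor-/- ISP cells: Ptcra by 0.63, Notch1 by 0.56, Il2ra by 0.48 and Cd3e by 0.22. Ptcra and Cd3e are also ISP markers, of which the other 2, Cd8a and Cd8b1, were at 0.04 and 0.21 and did not pass. The mean over the 5 markers was 9.12 to 9.26 on Rptor-/- ISP arrays and 8.65 to 8.81 on WT ISP arrays, so the groups did not overlap. The same 5 genes were above 0 in DN3a cells as well, where Ptcra passed (0.68, limma adjusted p = 0.00276) and the mean was 11.51 to 11.54 in Rptor-/- and 11.18 to 11.24 in WT cells. They were above 0 in γδ T cells too, between 0.11 and 0.26, and none passed there. All 5 gave signal on every array, and the part of these marker differences in the initiation factor result was not tested.

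Of eIF2, the carrier of the initiator tRNA, the 1 subunit gene analysed here showed 1 of the largest differences among the members. Eif2s2, the β subunit of eIF2, read 6.996, 7.065 and 6.915 on the Rptor-/- ISP arrays, against 7.429, 7.576, 7.519 and 7.639 on the WT ISP arrays. All Rptor-/- arrays lay below all WT arrays, with a log2 difference of −0.55 (SE 0.09, limma adjusted p = 0.000278), or 68.4% of the WT level. In DN3a cells the same gene read 7.24, 7.56 and 7.38 in Rptor-/- and 7.22, 7.49 and 7.38 in WT cells, and in γδ T cells 6.99, 7.23 and 7.12 in Rptor-/- and 7.26, 7.25 and 7.07 in WT cells. Those groups overlapped, with differences of 0.03 and −0.08. Eif2a and Eif2d, which deliver initiator tRNA on unusual mRNAs, were at −0.17 and −0.08 in ISP cells and did not pass (adjusted p = 0.149 and 0.595).

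eIF2B, the exchange factor that reloads eIF2 with GTP, is measured by all 5 of its subunit genes, and all 5 lay below 0 in ISP cells, with a median of −0.24. Eif2b1 (the α subunit) averaged 6.55 ± 0.08 in Rptor-/- (SD, n = 3) and 6.80 ± 0.11 in WT (SD, n = 4) ISP cells, a difference of −0.25 (limma adjusted p = 0.0458). Eif2b3 (the γ subunit) averaged 5.54 ± 0.06 in Rptor-/- (SD, n = 3) and 5.80 ± 0.10 in WT (SD, n = 4) ISP cells, a difference of −0.26 (limma adjusted p = 0.04). Both are close to the threshold: Eif2b1 no longer passed without Rptor-/- array 1 or 3 or WT array 1 or 2, and Eif2b3 passed with WT array 4 left out and with no other ISP array left out. Eif2b5, the catalytic ε subunit, was at −0.24 with groups that did not overlap (adjusted p = 0.106), and Eif2b2 and Eif2b4 were at −0.19 and −0.16. In DN3a and γδ T cells the 5 genes ranged between −0.03 and 0.18 and between −0.02 and 0.17, and 0 of 5 passed in limma or had an unadjusted p under 0.05 in either.

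Of 5 genes grouped with eIF1 and eIF1A, which serve in start codon selection or subunit joining or are related by sequence, Eif1a and Eif1ad were lower in Rptor-/- ISP cells. Eif1a, which holds the scanning small subunit open with eIF1, read 7.47, 7.67 and 7.45 in Rptor-/- against 8.02, 8.16, 8.01 and 7.81 in WT ISP cells. The groups did not overlap (log2 difference −0.47, SE 0.12, limma adjusted p = 0.00888), and the call was lost without Rptor-/- array 3 (adjusted p = 0.0522). Eif1ad, an eIF1A-domain protein whose human counterpart acts in maturation of the small ribosomal subunit, read 7.97, 7.86 and 7.61 in Rptor-/- against 8.39, 8.40, 8.16 and 8.31 in WT ISP cells. Again no array overlapped (−0.50, SE 0.10, limma adjusted p = 0.00138). Eif5b, the GTPase that joins the subunits, was at −0.24 with groups apart and did not pass (adjusted p = 0.118), while Eif5, which triggers GTP hydrolysis by eIF2, and Eif1b, a close copy of eIF1, were at −0.05 and 0.13.

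eIF3 is the many-subunit scaffold of the small subunit, and its 12 measured genes differed among themselves in ISP cells: 4 were lower, none higher, and their differences ran between −0.58 and 0.14 with a median of −0.17. Of all genes 6.57% were lower, and 15.5% of those with a mean above the array median. Eif3b, a core subunit that also carries the i and g subunits, read 8.76, 8.58 and 8.55 in Rptor-/- against 9.40, 9.45, 8.96 and 9.02 in WT ISP cells. WT arrays 3 and 4 were nearer to the Rptor-/- arrays than WT arrays 1 and 2, yet all 4 lay above them (−0.58, SE 0.11, limma adjusted p = 0.00118). Eif3l, which pairs with eIF3k at the edge of the complex, read 9.87, 9.95 and 9.86 in Rptor-/- against 10.19, 10.14, 10.23 and 10.15 in WT ISP cells. This was a smaller gap with a narrow spread (−0.29, SE 0.06, limma adjusted p = 0.00406), and the call was lost with quantile normalization (−0.17, adjusted p = 0.0884).

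Eif3d, a subunit that in human cells can bind the cap of certain mRNAs, was at −0.36 in ISP cells (limma adjusted p = 0.0114). Of the 12 lower genes it was the 1 whose groups overlapped, at 9.21 to 9.35 in Rptor-/- and 9.35 to 9.83 in WT cells, and its call was lost without Rptor-/- array 3 and with quantile normalization (−0.22, adjusted p = 0.12). A second, much dimmer probe set of Eif3d was at −0.03. Eif3i, the partner of eIF3b, was at −0.27 with groups apart (limma adjusted p = 0.0309), a call lost without Rptor-/- array 1 or 2 or WT array 1 or 2 and with quantile normalization, where the difference was −0.14 (adjusted p = 0.318). The other 8 genes did not pass: Eif3a, Eif3c, Eif3j1 and Eif3k were at −0.20, −0.14, −0.25 and −0.05, and Eif3e, Eif3f, Eif3h and Eif3m at 0.02, 0.14, 0.07 and 0.03. Eif3a passed without WT array 3 (−0.25, adjusted p = 0.0301), and Eif3j1, whose Rptor-/- arrays spread between 5.47 and 6.44, without Rptor-/- array 3 (−0.48, adjusted p = 0.0305), while without Rptor-/- array 2 it was at −0.0031.

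**Figure D2:**
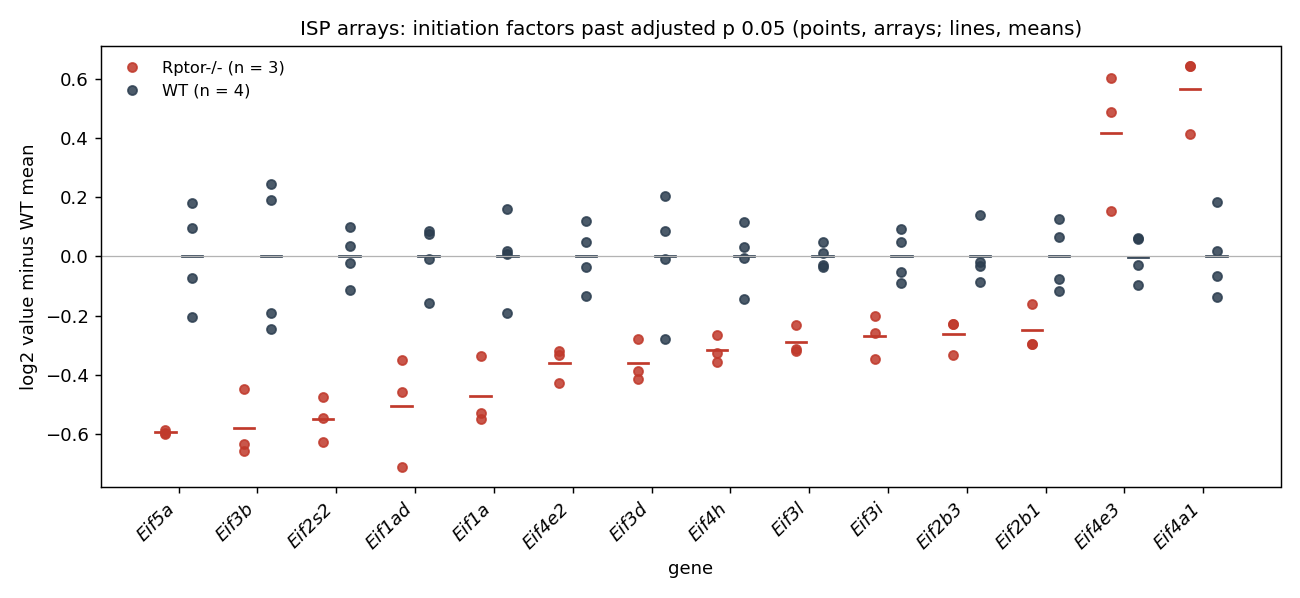
Every ISP array for the 14 initiation factor genes past adjusted p 0.05, as log2 value minus the WT mean of that gene (red points, 3 Rptor-/- arrays; dark points, 4 WT arrays; lines, group means). The Rptor-/- points lie below all WT points in 11 of the 12 lower genes, the exception being Eif3d, and above them in both higher genes.

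The cap-binding machinery was the 1 factor group with members called in both directions in ISP cells: of 10 genes 2 were lower and 2 higher, and the median was 0.0039. Over both directions 12.4% of all genes passed, and 29.5% of those with a mean above the array median. Eif4e2, a cap-binding relative of eIF4E that is known to repress translation, read 6.62, 6.64 and 6.53 in Rptor-/- against 6.92, 7.08, 7.01 and 6.82 in WT ISP cells. It lay lower on every Rptor-/- array (−0.36, SE 0.07, limma adjusted p = 0.00191). Eif4h, which assists the helicase eIF4A, read 9.622, 9.529 and 9.562 in Rptor-/- against 10.001, 9.918, 9.881 and 9.742 in WT ISP cells. These groups were apart too (−0.31, SE 0.06, limma adjusted p = 0.00208), and with quantile normalization the difference was −0.18 (adjusted p = 0.0401).

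Eif4e3, another cap-binding relative of eIF4E, went the other way. It read 7.43, 7.77 and 7.88 in Rptor-/- against 7.34, 7.25, 7.34 and 7.18 in WT ISP cells, with Rptor-/- array 1 just above the WT arrays and the other 2 well above (0.41, SE 0.09, limma adjusted p = 0.00271). Eif4e itself, the main cap-binding factor, was at −0.19 with overlapping groups and did not pass (adjusted p = 0.121). The scaffold genes Eif4g2 and Eif4g3 were at −0.04 and 0.11, the helicase cofactor Eif4b at 0.05, and Eif4e1b, an oocyte form read near the bottom of the scale, at −0.12.

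For Eif4a1, which encodes the helicase subunit of eIF4F, the 2 probe sets disagreed. The one with the higher mean read 11.09, 11.09 and 10.87 in Rptor-/- against 10.47, 10.39, 10.32 and 10.63 in WT ISP cells, higher on every Rptor-/- array (0.57, SE 0.11, limma adjusted p = 0.00193). The other averaged 9.59 ± 0.09 in Rptor-/- (SD, n = 3) and 9.70 ± 0.04 in WT (SD, n = 4) ISP cells, a difference of −0.10 (SE 0.06) that did not pass (limma adjusted p = 0.405). With the mean of both probe sets Eif4a1 was at 0.23 and did not pass (adjusted p = 0.0654), so a higher Eif4a1 level rests on 1 probe set. In DN3a cells the probe set used was at −0.25 with groups apart and the other at −0.09, and in γδ T cells they were at −0.18 and −0.07; none of these passed. The related helicase gene Eif4a2 was at 0.11 in ISP cells on the probe set with the highest mean over all 19 arrays and at −0.11 and 0.20 on the others, the last being the brightest of the 3 in ISP cells, and none passed.

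**Figure D3:**
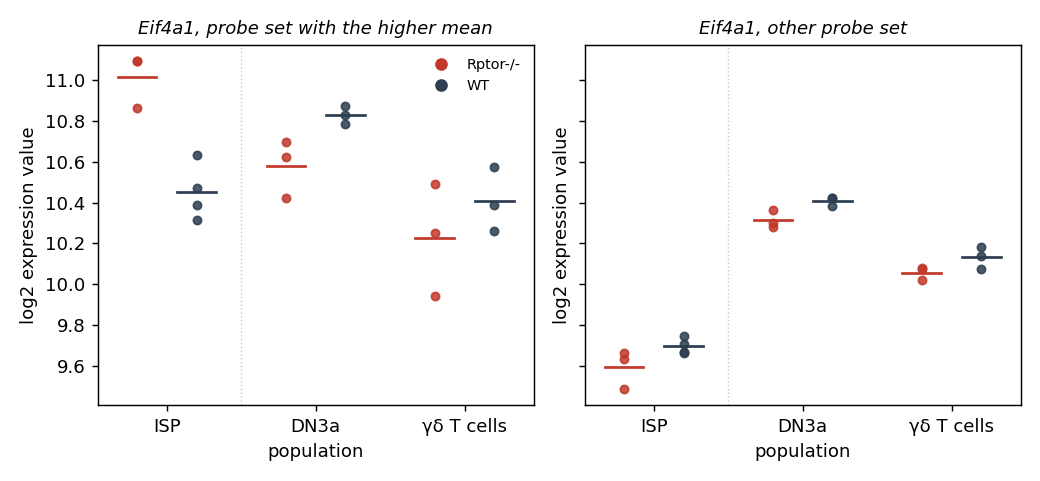
Log2 values of both probe sets of Eif4a1 on every array, Rptor-/- (red) left of WT (dark) in each population, with group means as lines. In ISP cells the Rptor-/- arrays lie above WT on the left-hand probe set (11.02 and 10.45 on average) and at or below WT on the right-hand one (9.59 and 9.70).

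The direct targets of mTORC1 among the members, the 4E-binding proteins, did not pass in any population. In ISP cells Eif4ebp1 read 5.70, 5.51 and 5.77 in Rptor-/- against 6.61, 5.79, 5.80 and 5.90 in WT cells. WT array 1 stood far above the other 3, the groups were apart, and the difference of −0.37 (SE 0.16) did not pass (limma adjusted p = 0.159). Without that array it was at −0.17 (adjusted p = 0.456). Eif4ebp2 was at −0.14, also with groups apart (adjusted p = 0.373), and Eif4enif1, the transporter that takes eIF4E into the nucleus, at −0.04. None of the 3 was past the threshold, with 1 of 3 at an unadjusted p under 0.05 in ISP cells and 0 of 3 in DN3a and in γδ T cells.

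Eif5a had the smallest p of all members. It encodes the hypusine-bearing factor eIF5A, named for initiation and now known mainly for helping the ribosome through difficult stretches and at termination. It read 7.70, 7.71 and 7.70 in Rptor-/- against 8.39, 8.48, 8.23 and 8.09 in WT ISP cells. The 3 Rptor-/- arrays were almost level and all below WT (−0.59, SE 0.08, limma adjusted p = 3.74e-05), at 66.3% of the WT signal. In DN3a cells it read 9.58, 9.61 and 9.62 in Rptor-/- against 9.71, 9.66 and 9.70 in WT, groups that did not overlap but differed by −0.09 (SE 0.09, limma adjusted p = 0.817). Its relative Eif5a2 and the subunit-joining inhibitor Eif6 were at 0.14 and −0.02 in ISP cells. The exon junction helicase gene Eif4a3 and its related locus Eif4a3l1 were at −0.10 and 0.06, and Eif1-ps3 and Eif2c5 at −0.14 and 0.01, none past the threshold.

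In DN3a cells, 0 of 45 members passed by limma, where 0.983% of all genes did; 2 had an unadjusted p under 0.05, where 10.6% of all genes did. The median difference was −0.0013 over members and 0.0112 over all genes, and the groups were apart for 3 members lower and 2 higher (6.74% and 10.4% of all genes). The 2 members were Eif4a3 and Eif1b. Eif4a3, the helicase of the exon junction complex, read 7.40, 7.29 and 7.46 in Rptor-/- against 7.88, 7.61 and 7.95 in WT DN3a cells. All 3 lay below WT, and the difference of −0.43 (SE 0.13) did not pass (limma adjusted p = 0.16). Eif1b was at 0.28 with overlapping groups (adjusted p = 0.382).

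In γδ T cells, 0 of 45 members passed by limma, where 3.05% of all genes did; 3 had an unadjusted p under 0.05, where 16.3% of all genes did. The median difference was −0.0093 over members and 0.0042 over all genes, with groups apart for 2 members lower and 7 higher (8.78% and 12.2% of all genes). Eif4a3l1 read 6.77, 7.18 and 7.01 in Rptor-/- against 6.72, 6.66 and 6.67 in WT γδ T cells, higher on each array by 0.30 on average (SE 0.11, limma adjusted p = 0.163). Eif4a2 was at 0.17 with groups apart (adjusted p = 0.28) and Eif1-ps3 at −0.20 with overlapping groups (adjusted p = 0.268). Without Rptor-/- array 1, Eif1-ps3 passed (−0.33, adjusted p = 0.0315). Beside these values, the ISP marker genes Cd8a and Cd8b1 were lower in Rptor-/- γδ T cells, at −0.53 and −1.72, which was 2 of 4 measured ISP markers, while Ptcra and Cd3e were at 0.22 and 0.11 and did not pass. The mean over the 4 was 7.79 to 7.96 in Rptor-/- and 8.28 to 8.43 in WT γδ T cells, carried mainly by Cd8b1, and its part in the values above was not tested.

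The 12 genes lower in Rptor-/- ISP cells were followed into the other populations. In DN3a cells they lay between −0.09 and 0.08, with 6 of 12 below 0, where 46.2% of all genes were (adjusted p of the 12 from 0.817 to 0.997), and in γδ T cells between −0.16 and 0.17, with 9 of 12 below 0, where 48.8% of all genes were (adjusted p of the 12 from 0.336 to 0.974). For Eif5a the 95% interval of the difference was −0.76 to −0.43 in ISP cells, −0.26 to 0.09 in DN3a cells and −0.27 to 0.08 in γδ T cells. For Eif3b it was −0.81 to −0.35, −0.26 to 0.23 and −0.41 to 0.09 in the same 3 populations.

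**Figure D4:**
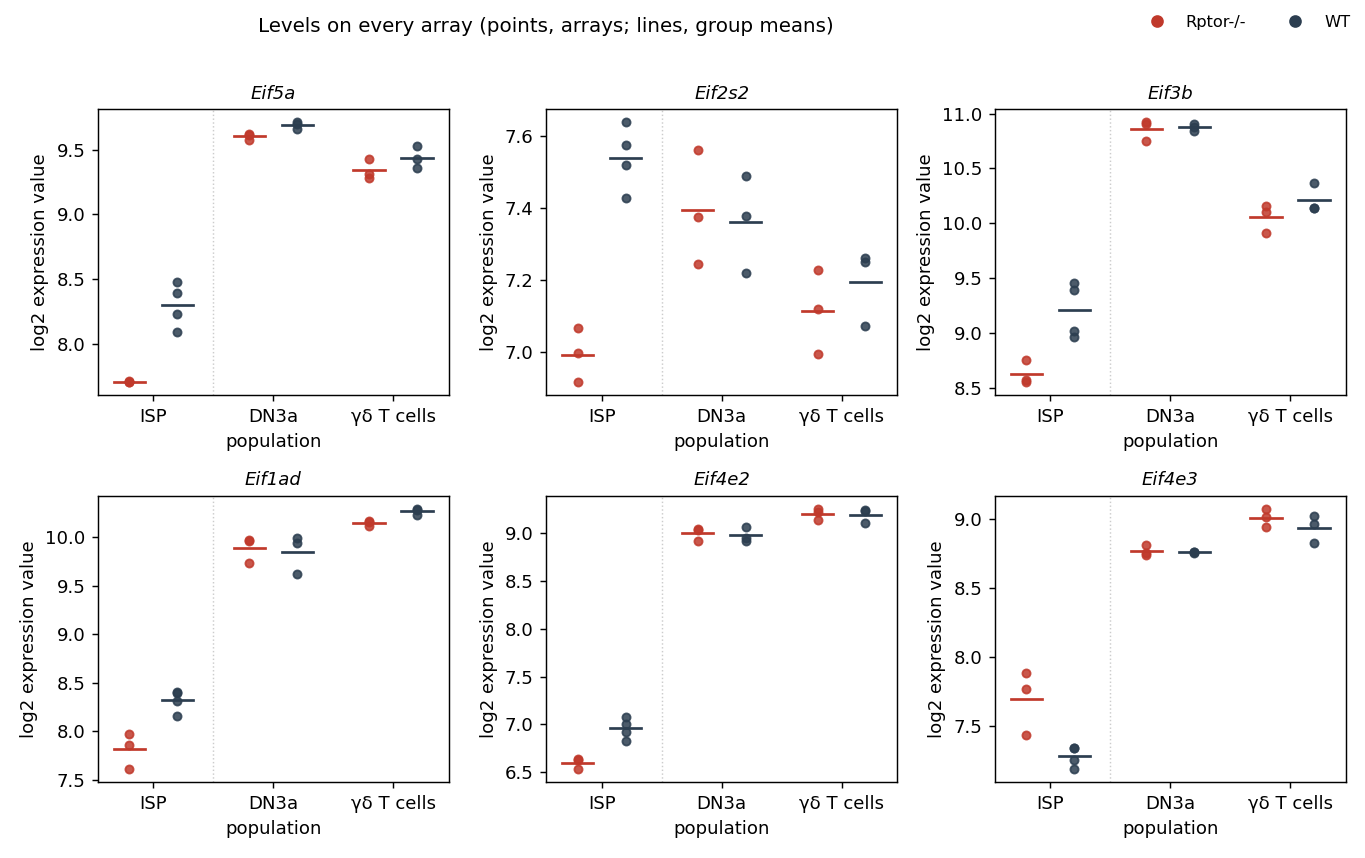
Log2 values on every array of 6 initiation factor genes in the 3 populations, Rptor-/- (red) left of WT (dark), with group means as lines; vertical axes differ between genes and do not start at 0, and ISP arrays, left of the dotted line, are on a value scale of their own. Rptor-/- and WT points stand apart in ISP cells for all 6 genes, and the DN3a groups of Eif5a and the γδ groups of Eif1ad are also apart by a smaller distance.

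The differences between genotype effects were tested directly, in limma, as interaction terms. For ISP against DN3a cells, 6 members passed, where 7.01% of all genes did (4.12% lower, 2.89% higher). Eif5a (−0.51, adjusted p = 0.012), Eif2s2 (−0.58, 0.0104), Eif3b (−0.56, 0.0406), Eif1ad (−0.54, 0.0261) and Eif4e2 (−0.38, 0.036) had the lower difference in ISP cells, and Eif4a1 the higher (0.82, 0.00522). For ISP against γδ T cells, 6 passed, where 5.78% of all genes did (3.63% lower, 2.16% higher). They were Eif5a (−0.50, adjusted p = 0.0154), Eif2s2 (−0.47, 0.0414), Eif1a (−0.60, 0.0408), Eif2b3 (−0.44, 0.0365), Eif4e2 (−0.37, 0.0468) and Eif4a1 (0.74, 0.0116). Both comparisons use the same ISP arrays. On the other probe set the Eif4a1 terms were −0.01 and −0.03. Each of these compares effects across 2 value scales. Among genes with a mean above the array median, 10 of 43 members (23.3%) and 19.1% of genes passed against DN3a cells. Against γδ T cells 6 of 43 (14%) and 14.8% passed, so the shares over both directions lie near those of other genes with such signal. In the lower direction they were 18.6% of members and 11.2% of genes against DN3a cells, and 11.6% and 9.26% against γδ T cells. Without the filter, both counts of 6 move with single arrays: without 1 array in turn they ranged between 3 and 8 against DN3a cells and between 2 and 5 against γδ T cells. Against DN3a cells 3 passed without ISP Rptor-/- array 3, DN3a Rptor-/- array 2 or 3, or DN3a WT array 1, and against γδ T cells 2 or 3 passed without any ISP Rptor-/- array, ISP WT array 1, 2 or 3, γδ Rptor-/- array 2 or 3, or γδ WT array 1 or 2. For γδ T cells against DN3a cells, 0 members passed (0.600% of all genes), 3 had an unadjusted p under 0.05, and the 1 call that appeared with an array left out came without γδ Rptor-/- array 1.

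Translation genes around the initiation factors were counted in 4 lists with 34 measured genes. In ISP cells 10 were lower and 2 higher, or 35.3% of the 34, where 12.4% of all genes passed. With only the ISP arrays in the fit, 7 passed (6 lower, 1 higher; 20.6%, against 5.92% of all genes), and 7 also passed without Rptor-/- array 3, where 8.56% of all genes did. Among genes with a mean above the array median, 15 of these 34 (44.1%) and 29.5% of genes passed. Among 10 genes that link mTORC1 to translation, 3 were lower and 1 higher. Larp1, which binds the mRNAs of ribosomal proteins under mTORC1, was at −0.32 (SE 0.06, limma adjusted p = 0.00175). The kinases that phosphorylate eIF4E went opposite ways: Mknk2 was at −0.49 (SE 0.07, limma adjusted p = 0.000135) and Mknk1 at 0.30 (SE 0.08, limma adjusted p = 0.0209), both with groups apart. The remaining call was Rptor.

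Of 6 genes of the eIF2 kinases and phosphatase subunits, 1 was lower and 1 higher in Rptor-/- ISP cells, where 12.4% of all genes passed. Ppp1r15a, which directs a phosphatase to eIF2 and so restores initiation after stress, read 7.15, 6.94 and 7.10 in Rptor-/- against 8.41, 7.85, 8.42 and 7.78 in WT ISP cells. It lay lower on every Rptor-/- array (−1.05, SE 0.13, limma adjusted p = 2.11e-05), a larger difference than that of any member. Eif2ak3, the eIF2 kinase PERK of the endoplasmic reticulum, read 6.02, 6.71 and 6.35 in Rptor-/- against 5.61, 6.02, 5.82 and 5.75 in WT ISP cells. Rptor-/- array 1 met the highest WT array, and the difference was 0.56 (SE 0.12, limma adjusted p = 0.00367). In DN3a cells the same 2 genes were at 0.30 and 0.03, and in γδ T cells at 0.02 and −0.01, none past the threshold.

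The 2 termination factor genes differed more than any initiation factor in ISP cells. Gspt1, the GTPase eRF3, read 8.177, 8.465 and 8.194 in Rptor-/- against 8.900, 9.101, 9.001 and 8.956 in WT ISP cells. Etf1, the stop-codon factor eRF1, read 8.75, 8.76 and 8.72 in Rptor-/- against 9.41, 9.47, 9.26 and 9.32 in WT ISP cells. Both were apart from WT on every array, at −0.71 (SE 0.08, limma adjusted p = 7.86e-06) and −0.62 (SE 0.07, limma adjusted p = 8.9e-06). Of the 10 genes of elongation and termination, Eef1e1, which in human cells belongs to the multi-synthetase complex, and Eef1d, an exchange-factor subunit of elongation, were lower as well, at −0.38 and −0.31 (limma adjusted p = 0.00812 and 0.0107). The elongation factor gene Eef1a1 was at 0.05 and did not pass. Of 8 genes of poly(A) binding, recycling and reinitiation, Pabpc4 (−0.30) and Abce1, the ATPase that splits ribosomes (−0.31), were lower (limma adjusted p = 0.0232 and 0.0161). In DN3a cells and in γδ T cells Rptor was the 1 gene of the 34 that passed, with 2 and 5 at an unadjusted p under 0.05, where 10.6% and 16.3% of all genes were.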

How the data were processed

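The authors deposited 1 table of log2 values for 19 arrays, made with RMA in Partek 6.6 per the submitters' processing notes, from 12 ng of total RNA per array per the labels. Which arrays shared a normalization was not given in the sources used here. Members, gene lists and the E-box search were chosen with earlier results of these data known. Of 41345 probe sets, 23521 had 1 gene symbol, 1814 several and 16010 none; the first kind was kept, 23328 symbols were checked through Entrez IDs, and each of 22180 genes was read by its brightest probe set, with no filter on low signal. Eif3d, Eif4a1 and Eif4a2 had more than 1 probe set. limma 3.58.1 in R 4.3.3 was fitted as 1 model of 6 group means, with Benjamini-Hochberg adjustment over all genes and a threshold of 0.05. Its adjusted p is given throughout. A run on simulated data had 1 pass condition, the recovery of differences of 1 log2 unit, which is larger than the difference of any member. Recovery of smaller differences is not reported here. The exact permutation test used scipy 1.17.1, and figures matplotlib 3.10.9, in Python 3.11.15. Members past the threshold were named, up to 8 in each direction of a comparison with a value on every array, and up to 4 called genes of each of the 4 other translation lists. Alternatives were a fit within each population, a fit per value scale, centring, quantile normalization, a filter, the mean of probe sets, the replicate number as a block and each array left out; the other Eif4a1 probe set was added after its values were seen. The number of arrays limits the precision: within groups, genes had a median SD of 0.0883 to 0.117. Arrays of the same group correlated at 0.9933 to 0.9966 over all genes, so no 2 of them were copies. Single genes could tie between arrays, as Eif4a2 did at 10.1536 on WT ISP arrays 1, 2 and 4. Same-numbered arrays of both genotypes deviated with correlations of −0.10 to 0.24, so the numbers were not taken as pairs. Sequences are RefSeq's, of GRCm38.p6.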

Additional observations from a re-analysis of the deposited data

Results flagged for a closer look

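In the 4 WT ISP arrays, a test of the gap between 1 array and the other 3 flagged 7 of 45 initiation factor genes. Its nominal rate is about 1 in 20 for untied values, and Eif4a2 was tied on the other 3 arrays. The test was run on the members only, so no share over all genes can be set beside the 7. Some of the gaps were small. Array 1 was high for Eif4ebp1 (6.61, others 5.79 to 5.90), Eif2b2 (7.60, others 7.35 to 7.37) and Eif2b4 (5.85, others 5.61 to 5.64). Array 2 was high for Eif4ebp2 (10.30, others 10.13 to 10.15) and low for Eif4a3l1 (5.42, others 5.68 to 5.72). Array 3 was low for Eif4a2 (9.91, others 10.15), and array 4 high for Eif2d (6.79, others 6.68 to 6.70). None of these 7 genes passed the genotype test.

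The genotype effect differed between ISP and DN3a cells, by limma's interaction term, for Eif1ad (−0.54, adjusted p = 0.0261), Eif2s2 (−0.58, 0.0104), Eif3b (−0.56, 0.0406), Eif4a1 (0.82, 0.00522), Eif4e2 (−0.38, 0.036) and Eif5a (−0.51, 0.012). Between ISP and γδ T cells it differed for Eif1a (−0.60, adjusted p = 0.0408), Eif2b3 (−0.44, 0.0365), Eif2s2 (−0.47, 0.0414), Eif4a1 (0.74, 0.0116), Eif4e2 (−0.37, 0.0468) and Eif5a (−0.50, 0.0154). The ISP arrays lie on another value scale than the others, and the part of that scale in these 12 differences was not tested.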

How the results depend on the processing

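Of the 14 members called in ISP cells, 5 (Eif1ad, Eif2s2, Eif4e2, Eif4h and Eif5a) passed in every alternative run and 9 with each array left out. The count of 14 became 8 with only the ISP arrays and with 2 fits by value scale, 10 with quantile normalization, 13 with centring, 12 with the mean of probe sets, 15 with a filter on low signal and 11 to 14 with 1 array left out; with the replicate number as a block it was 12. The share of all genes that passed moved as well: 12.4% in the reported fit, 5.92% with only the ISP arrays and with 2 fits, 11.3% with quantile normalization, 11.8% with centring, 12.5% with the mean of probe sets, 29.5% with the filter, 11.9% with the block and 8.56% to 12% with 1 array left out. With the filter the members' 34.9% over both directions lies near the share of all genes, while 30.2% of members and 15.5% of genes were lower. The median stayed below 0, between −0.17 and −0.10. In γδ T cells 1 member passed without Rptor-/- array 1 (Eif1-ps3, −0.33) and 0 in all other settings run; the γδ minus DN3a interaction count was 1 without that array and 0 otherwise. In DN3a cells the count was 0 in every setting run. The ISP minus DN3a count of 6 became 3 with quantile normalization, 10 with the filter, 7 with the block and 3 to 8 with an array left out, being 3 without ISP Rptor-/- array 3, DN3a Rptor-/- array 2 or 3, or DN3a WT array 1. The ISP minus γδ count of 6 became 2 with quantile normalization, 5 with the block and 2 to 5 with an array left out, being 2 or 3 without ISP Rptor-/- array 1, 2 or 3, ISP WT array 1, 2 or 3, γδ Rptor-/- array 2 or 3, or γδ WT array 1 or 2. On the other Eif4a1 probe set the ISP difference was −0.10 and the 2 interaction terms −0.0075 and −0.027, against 0.57, 0.82 and 0.74. The count of other translation genes in ISP cells, 12, became 7 with only the ISP arrays and with 2 fits. It was 8 with quantile normalization, 15 with the filter, 13 with the block and 7 to 13 with an array left out (7 without Rptor-/- array 3). In γδ T cells that count was 0 with only the γδ arrays, 2 fits, centring, the block and any γδ array left out, since Rptor no longer passed. Rptor in ISP cells missed the threshold with only the ISP arrays and with 2 fits (−0.24, adjusted p = 0.128), quantile normalization (−0.22), the block (−0.23) and 5 of the leave-one-out fits (−0.31 to −0.18 over all 7); in γδ T cells with only those arrays and 2 fits (−0.30, adjusted p = 0.114 and 0.0605), centring (−0.26), the block (−0.30) and each array left out (−0.33 to −0.27). The causes were not tested. Fewer arrays in the fit leave fewer degrees of freedom, and Eif2c5 and Eif4e1b lie under the filter on low signal.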
